A study of Mus musculus with 54 samples.

Results

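The comparison set sperm microRNAs (miRNAs) of mice that went back to a low-fat diet after a period of high fat against those of mice that stayed on high fat. It took 12 of the 54 small RNA libraries of the study, 6 per diet, and all 79 miRNAs that the authors' sperm table lists. All mice were wild-type C57BL/6 males of the F0 generation, kept on chow until 6 weeks of age and sampled at 24 weeks. HFLF mice ate high fat for 9 weeks and then low fat for 9 weeks, and HF mice ate high fat for 18 weeks. A further 6 sperm libraries came from LF mice, which ate low fat for 18 weeks and never had the high-fat diet. The groups were read from the column codes RE (HFLF), HF and CD (LF), of which the labels do not define RE and CD, and the protocol prints the 18-week high-fat diet as HLD. The labels number the replicates without stating that each is its own animal, and the p-values below cover only the spread of these libraries, which may be technical.

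MiRNAs are short RNAs that pair with messenger RNAs, mainly through a stretch near their 5′ end called the seed, and lower their translation and stability. Sperm leave the testis with miRNAs made during spermatogenesis and take up others while they pass through the epididymis. The small RNA content of sperm is known to respond to the father's diet in rodents. Members of a family that share a seed are expected to share many targets.

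The values are on a log2-like scale as deposited, and a difference of 1 is a doubling only if that scale is log2. Every library shares a lowest value of 1.72, which is read here as not detected. The next lowest value was 2.12 and the highest 18.64. No read counts stand behind these values in the files, so the depth of the sperm libraries is unknown. Of the 79 miRNAs, 37 were detected in all 18 sperm libraries, 33 in some of the 12 HFLF and HF libraries, and 9 in none of the 12, only in LF. HFLF libraries had 44 to 52 detected miRNAs, HF libraries 42 to 48, and LF libraries 44 to 49. The rule by which the authors chose the 79 is not stated, so no share of the table stands for all sperm miRNAs. If that rule used diet differences in these libraries, the p-values below, adjusted over the 79 or not, would be too small.

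A pair of library features bear on every result below. The library numbers of LF, HF and HFLF 6 form 1 run in steps of 2, whereas HFLF 1 to 5 carry consecutive numbers in a later run. For HFLF 1 to 5 this separate series and the diet cannot be told apart, and HFLF 6 is therefore given on its own where it matters. Library HF 1 stood apart from its group: over the 37 always-detected miRNAs its profile had a mean Pearson correlation of -0.29 with the other HF libraries and of 0.19 with the HFLF libraries, each miRNA being taken relative to its mean. It lay outside the range of the other HF libraries for 23 of the 37. HF 4 and HFLF 4 lay outside their own group's range for 21 each, HFLF 5 for 20 and HFLF 3 for 17. LF libraries did so for 5 (LF 6) to 18 (LF 2). For each miRNA some library of a group is the lowest and some the highest, so every library is likely to have such a count. HFLF 3 also had a negative mean correlation with its own diet (-0.12).

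Mature sequences of miRNAs described below are shown first, 5′ to 3′, with the seed (bases 2 to 8) in capitals. They are those of RefSeq for GRCm38.p6, which held 65 of the 79 names at 69 loci. The first set belongs to miRNAs with lower means in HFLF, and is shown because 7 of them fall into 3 groups of shared seeds.
miR-10a-5p: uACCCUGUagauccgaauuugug
miR-10b-5p: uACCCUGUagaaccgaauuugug
miR-99a-5p: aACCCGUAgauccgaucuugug
miR-99b-5p: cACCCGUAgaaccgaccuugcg
miR-100-5p: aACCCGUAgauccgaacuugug
miR-125a-5p: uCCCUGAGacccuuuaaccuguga
miR-125b-5p: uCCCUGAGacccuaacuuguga
miR-206-3p: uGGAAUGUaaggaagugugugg
miR-133b-3p: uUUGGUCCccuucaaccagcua
miR-871-3p: uGACUGGCaccauucuggauaau

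The second set belongs to miRNAs with higher means in HFLF and is shown for the shared seeds of the miR-19 pair and the miR-24 pair. MiR-451a shares its seed with no other listed miRNA that has a sequence here.
miR-19a-3p: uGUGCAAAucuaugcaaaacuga
miR-19b-3p: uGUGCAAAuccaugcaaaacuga
miR-24-1-5p: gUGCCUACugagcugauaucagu
miR-24-2-5p: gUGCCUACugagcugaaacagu
miR-451a: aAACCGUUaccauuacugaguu

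Counted from 1 at the 5′ end, miR-10a-5p and miR-10b-5p differ by U12A, miR-19a-3p and miR-19b-3p by U11C, and miR-100-5p and miR-99a-5p by A16U. Reads of such near-identical pairs can be divided between the names in a way that depends on the authors' counting, which is not stated, so the split within each pair is uncertain.

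MiR-1a-3p, the miRNA of heart and skeletal muscle, had lower deposited values in sperm of HFLF mice than in sperm of HF mice. Its lowest, median and highest values were 12.44, 12.75 and 12.87 in HFLF libraries, against 13.06, 13.49 and 13.84 in HF libraries. Every HFLF library lay below every HF library, and no other listed miRNA separated the diets in either direction (1.27% of the 79). The mean was 12.69 ± 0.17 in HFLF and 13.50 ± 0.31 in HF (SD, n = 6 each), a difference of -0.81 (SE 0.19, 95% interval -1.20 to -0.43, limma adjusted p = 0.0187). On a log2 scale that is a 1.75-fold lower level. The exact permutation p was 0.00216, the smallest that the 924 splits can give. The LF mean lay between, at 12.95 ± 0.26 (SD, n = 6), and HFLF did not pass against LF (difference -0.26, adjusted p = 0.591).

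MiR-1a-3p was the only miRNA called at an adjusted p below 0.05, 1 of 79 (1.27%). The call held in each of the 18 fits that left out 1 sperm library (adjusted p from 0.00132 to 0.0469), and HF 1 gave a difference of -0.78 when left out. It ended when each library was centred on its median (difference -0.55, adjusted p = 0.111). HFLF 6, set alone against HF, stood 0.99 below the HF mean (difference -0.99, adjusted p = 0.0760, with this single library assumed to vary like those of HF and LF), and HFLF 1 to 5 averaged a difference of -0.78 from it.

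Between the called miRNA and the rest lay a broad middle ground. At an unadjusted limma p below 0.05 there were 29 of 79 miRNAs (36.7%), 15 with higher and 14 with lower means in HFLF. At an adjusted p below 0.1 there were 24 (30.4%), 12 in each direction. Many of these share an adjusted p of 0.0905, a tie made by the adjustment. Their unadjusted limma p ran from 0.00232 (miR-871-3p) to 0.0218 (miR-293-5p), so the tie does not mean equal evidence. Counted as higher at the unadjusted level were miR-380-3p, miR-24-1-5p, miR-137-3p, miR-615-5p, miR-1941-3p and miR-106a-5p, which were at the lowest value in every HF and LF library. Their limma p rests on groups without spread, and their exact permutation p was 0.0606 to 0.182. MiR-380-3p, miR-24-1-5p and miR-137-3p were also among those higher at an adjusted p below 0.1. Among the 37 always-detected miRNAs, 15 means were higher and 22 lower, with a median difference of -0.58, and over all 79 the median was -0.26. The libraries' own median over the 37 averaged 8.48 in HFLF and 8.74 in HF. It is taken from the same miRNAs, so a shift of whole libraries and differences of single miRNAs cannot be told apart. After centring, the median differences were -0.32 over the 37 and -0.20 over the 79, the split of 15 to 22 was the same, and the calls were 2 higher (miR-19b-3p and miR-30b-5p) and 0 lower, against 0 higher and 1 lower as deposited.

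**Figure D1:**
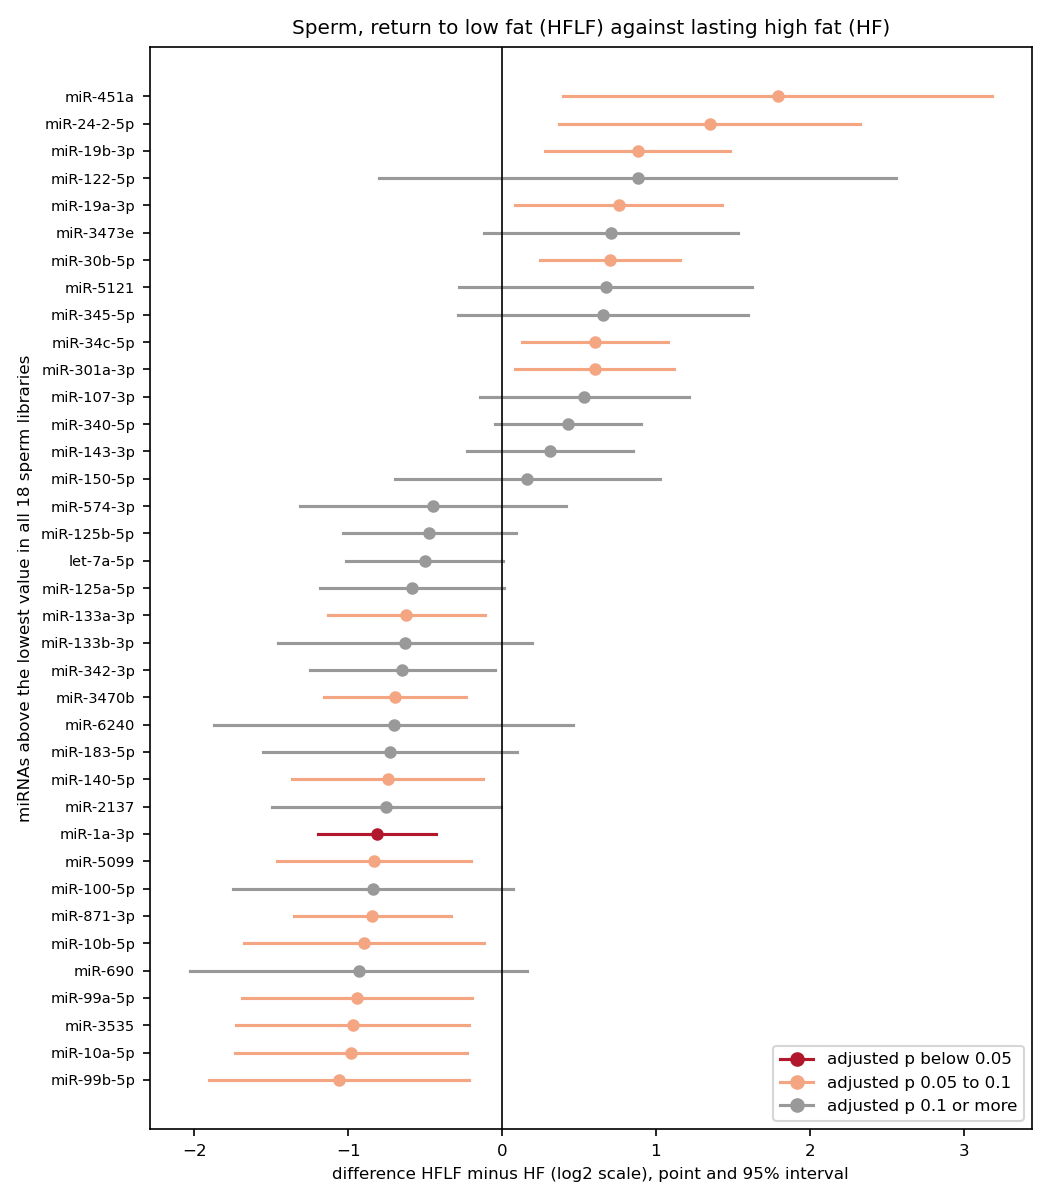
Difference of means, HFLF minus HF, for the 37 miRNAs detected in all 18 sperm libraries, with its 95% interval from limma on the deposited log2-like scale, coloured by adjusted p. MiR-1a-3p alone passes at 0.05; 15 points lie right of 0 and 22 left of it.

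The muscle miRNAs are known as myomiRs and promote or restrain myoblast growth and differentiation. Of the 6 names in the striated muscle list, 4 stand in the sperm table, and all 4 had lower means in HFLF, with 1 called (1.27% of all 79) and 3 at an unadjusted p below 0.05 (36.7% of all 79). The median difference of the 4 was -0.72, beside -0.26 over all 79 and -0.58 over the 37 always-detected miRNAs, to which miR-206-3p does not belong. MiR-133a-3p, which restrains muscle differentiation and favours proliferation, had a lowest, median and highest value of 10.93, 11.09 and 11.52 in HFLF and of 11.47, 11.80 and 12.14 in HF. The ranges touched only at their ends, the difference was -0.62 (SE 0.24, adjusted p = 0.0905), and all 6 HFLF libraries lay below the HF mean. LF averaged 11.50 ± 0.62, with LF 3 at 12.73 as the highest of all 18.

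MiR-206-3p, the form of this family that is restricted to skeletal muscle, varied most. HFLF 1 and HFLF 6 had 8.89 and 7.28, HFLF 3, 4 and 5 had 4.78, 3.96 and 3.14, and HFLF 2 was at the lowest value. HF libraries ran from 3.56 in HF 3 to 10.24 in HF 2. The diets overlapped over most of their range: the difference was -2.71 with an SE of 1.09 (adjusted p = 0.0905), and for HFLF 6 alone it was -0.40. MiR-133b-3p had medians of 5.91 in HFLF and 6.67 in HF, with HF values of 5.38 to 7.64 around the HFLF range of 5.61 to 6.59 (difference -0.63, SE 0.40, adjusted p = 0.218).

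The genes of miR-206 and miR-133b are neighbours on mouse chromosome 1 (GRCm38.p6), with mature sequences at 20679055 to 20679076 and 20682834 to 20682855 on the plus strand, 3779 bases apart from start to start and both within exons of the long noncoding RNA Gm28653. The summed level of the 4 muscle miRNAs was 12.89 to 13.34 in HFLF, 13.48 to 14.28 in HF and 13.07 to 14.12 in LF on the log2-like scale. MiR-499-5p and miR-208b-3p, the other names of the list, do not stand in the sperm table. In bulk RNA, fewer cells of a type and less RNA per cell cannot be told apart, and the part of muscle RNA in these values was not tested.

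**Figure D2:**
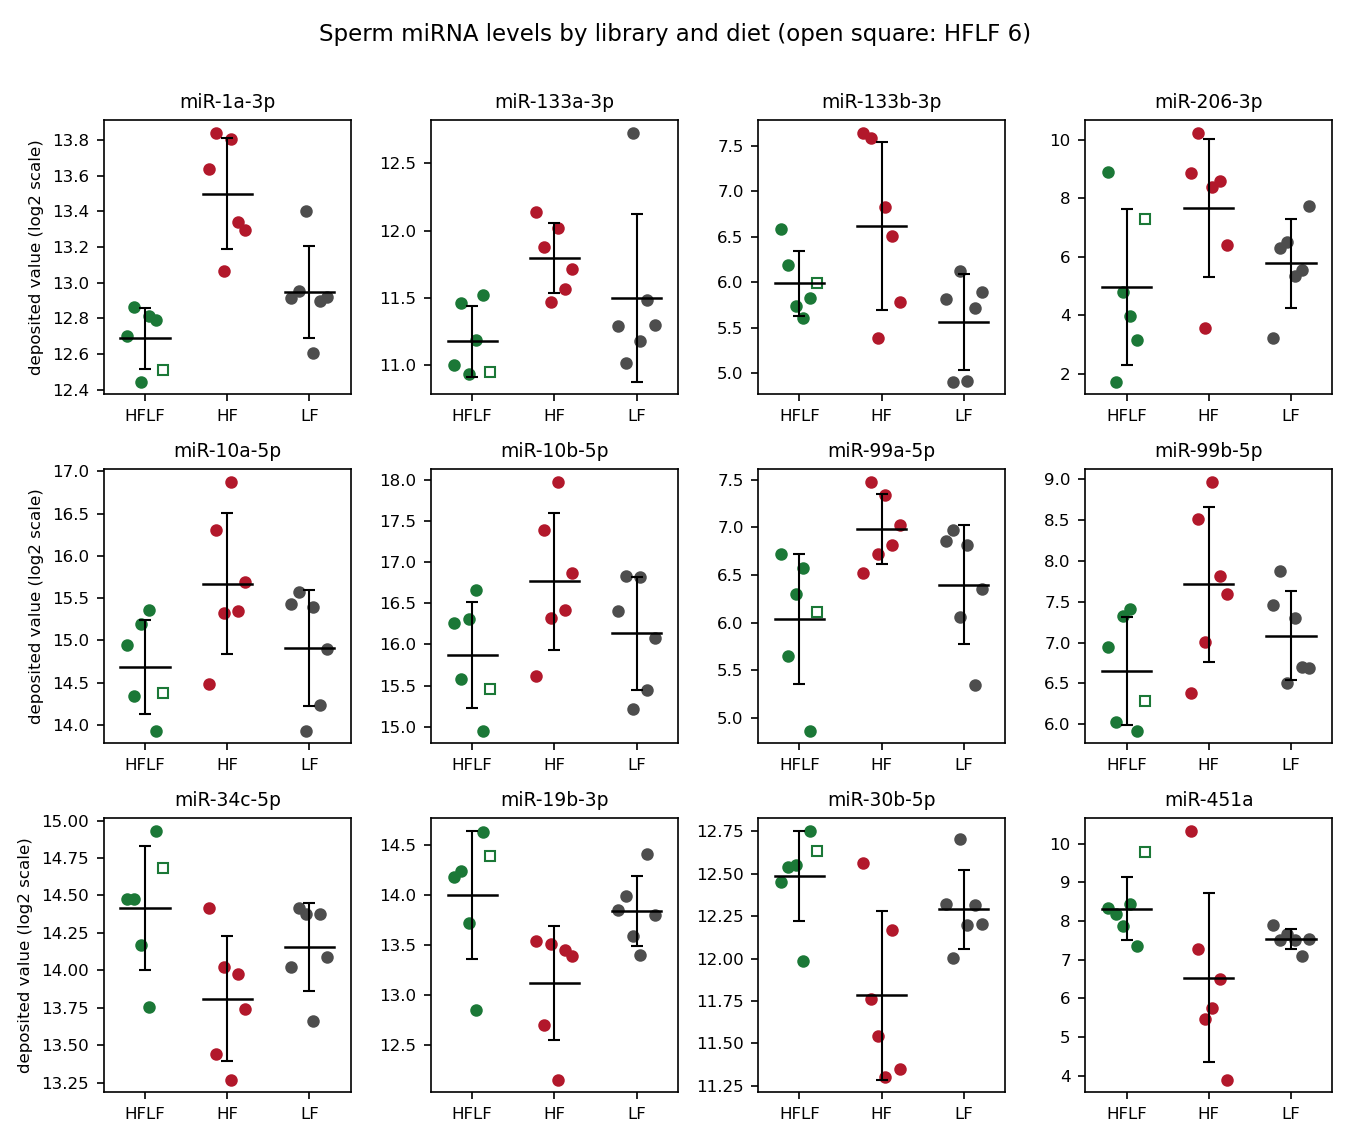
Deposited values (log2 scale on the vertical axis, which does not start at 0) of 12 sperm miRNAs in each library of HFLF, HF and LF; lines and bars are the mean and SD of 6 libraries, and the open square is HFLF 6. In the first panel all HFLF points of miR-1a-3p (12.44 to 12.87) lie below all HF points (13.06 to 13.84), while in the other panels the diets overlap.

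The miR-10 family, whose genes lie among or near the Hox clusters or in related blocks with let-7 and miR-125, was measured in full. All 5 members of the list had lower means in HFLF, 4 at an unadjusted p below 0.05 (36.7% of all 79) and 0 called (1.27% of all 79). Their median difference was -0.94, beside -0.26 over all 79 and -0.58 over the 37 always-detected miRNAs, to which all 5 belong. MiR-10a-5p had a lowest, median and highest value of 13.93, 14.66 and 15.36 in HFLF and of 14.48, 15.52 and 16.88 in HF. All 6 HFLF libraries lay below the HF mean, but HF 1, HF 3 and HF 5, at 14.48, 15.32 and 15.34, fell within the HFLF range. The difference was -0.98 (SE 0.36, 95% interval -1.74 to -0.23, adjusted p = 0.0905).

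MiR-10b-5p, the member inside Hoxd3 and Hoxd4, had 14.95, 15.92 and 16.66 in HFLF and 15.61, 16.65 and 17.97 in HF as lowest, median and highest. The overlap again came from the lower HF libraries, of which HF 1 was the lowest, and the difference was -0.89 (SE 0.38, adjusted p = 0.0983). MiR-99a-5p ran from 4.87 to 6.72 in HFLF and from 6.52 to 7.48 in HF (difference -0.94, SE 0.36, adjusted p = 0.0905). MiR-99b-5p showed the widest gap of means in the family, 6.65 ± 0.66 in HFLF and 7.72 ± 0.95 in HF (SD, n = 6 each; difference -1.06, SE 0.41, adjusted p = 0.0905). MiR-100-5p had 4.32 to 6.71 in HFLF and 5.21 to 7.58 in HF (difference -0.84, adjusted p = 0.152).

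The miR-125 pair, homologues of the worm lin-4 miRNA, is encoded beside this family. Its means were lower in HFLF too, by differences of -0.58 for miR-125a-5p (adjusted p = 0.129) and -0.47 for miR-125b-5p (adjusted p = 0.177), neither called. MiR-99b and miR-125a lie 623 bases apart on chromosome 17, in an intron of Spaca6, a gene for a sperm membrane protein needed for gamete fusion. MiR-99a and a first copy of miR-125b lie 47339 bases apart on chromosome 16, and miR-100 and a second copy lie 50503 bases apart on chromosome 9. Both copies give the same mature miR-125b-5p, so its level cannot be assigned to either.

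Let-7a-5p, which represses growth genes in many tissues, was the only let-7 name in the table and had the second highest level. It ran from 15.76 to 16.77 in HFLF and from 16.12 to 17.06 in HF, with a difference of -0.50 (SE 0.25, adjusted p = 0.126). The ranges overlapped widely, and 5 of 6 HFLF libraries lay below the HF mean. MiR-871-3p belongs to a block of testis miRNAs on the X chromosome, and was the only 1 of the 31 names of that list in the table. Its lowest, median and highest values were 9.72, 10.43 and 11.48 in HFLF and 11.08, 11.36 and 11.59 in HF. HFLF 3 alone reached into the HF range, and the difference was -0.84 (SE 0.25, adjusted p = 0.0905). Without HFLF 3 it was among 2 miRNAs called, beside miR-1a-3p.

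Among other lower means in the group of smallest p, miR-3470b had 7.77 to 8.64 in HFLF and 8.62 to 9.19 in HF (difference -0.70, adjusted p = 0.0905). MiR-5099 had 8.48 to 9.76 in HFLF and 9.57 to 10.37 in HF (difference -0.83, adjusted p = 0.0905). For miR-5099 the value of HFLF 6 was close to the HF libraries, with a difference from the HF mean of -0.28, while HFLF 1 to 5 averaged a difference of -0.94. For miR-3470b these 2 differences were -0.75 and -0.69.

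The remaining always-detected miRNAs are given with no rule of choice other than completeness. MiR-3535 ran from 7.82 to 9.12 in HFLF and from 8.40 to 10.75 in HF (difference -0.97, adjusted p = 0.0905). MiR-140-5p, a cartilage miRNA, ran from 5.41 to 6.46 in HFLF and from 6.12 to 7.05 in HF (difference -0.74, adjusted p = 0.0905), and all 6 HFLF libraries lay below the HF mean. MiR-2137 had a difference of -0.75 (adjusted p = 0.126) and miR-690 of -0.93 (adjusted p = 0.177), with 2.80 to 4.74 in HFLF and 3.27 to 6.39 in HF for miR-690. MiR-6240 (difference -0.70) and miR-574-3p (difference -0.45) also had lower means in HFLF, with intervals that span 0. On the higher side, miR-340-5p differed by 0.43 (adjusted p = 0.154), miR-3473e by 0.71 (adjusted p = 0.177), miR-5121 by 0.67 and miR-345-5p by 0.65, each with overlapping diets.

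Among the higher means were a germ cell miRNA and members of a growth-promoting cluster. MiR-34c-5p, a testis miRNA of the miR-34/449 family made in meiotic and postmeiotic germ cells, was the only 1 of 9 names of the germ cell list in the table, and it was detected in every library. It had a lowest, median and highest value of 13.75, 14.48 and 14.93 in HFLF and of 13.27, 13.86 and 14.42 in HF. The ranges overlapped, with HF 1 highest in HF and HFLF 4 lowest in HFLF (difference 0.60, SE 0.23, adjusted p = 0.0905).

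MiR-19a-3p and miR-19b-3p belong to the cluster named after miR-17, which supports cell growth and survival. MiR-19b-3p had 12.85, 14.21 and 14.63 in HFLF and 12.15, 13.42 and 13.54 in HF as lowest, median and highest. In HFLF, 5 of 6 libraries lay above every HF library, and HFLF 4 was the exception (difference 0.88, SE 0.29, 95% interval 0.28 to 1.48, adjusted p = 0.0905). MiR-19a-3p had the same exception, at 10.08 in HFLF 4 against 11.42 to 12.23 in the other HFLF libraries and 9.89 to 11.30 in HF (difference 0.76, adjusted p = 0.0983). Without HFLF 4, 4 miRNAs were called, namely miR-1a-3p, both miR-19 and miR-30b-5p.

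The copies of miR-19a and miR-19b on chromosome 14 lie 310 bases apart, and a second copy of miR-19b lies on the X chromosome, 550 bases from miR-106a. MiR-106a-5p, of the related X-linked cluster, was detected in 3 of 6 HFLF libraries, at 2.26 to 2.73, and in no HF or LF library. These were the 3 of 16 names of the list of this cluster and its paralogs in the table, all with higher means in HFLF, all at an unadjusted p below 0.05 (36.7% of all 79) and 0 called (1.27% of all 79). For miR-106a-5p the unadjusted limma p (0.0475) rests on HF and LF groups without spread, and the exact permutation p was 0.182.

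MiR-30b-5p, of a family that restrains fibrosis and inhibits the plasma cell regulator Blimp-1, had 11.99, 12.55 and 12.75 in HFLF and 11.30, 11.65 and 12.57 in HF as lowest, median and highest. All 6 HFLF libraries lay above the HF mean, HF 1 was the highest HF library, and the difference was 0.70 (SE 0.22, adjusted p = 0.0905). HFLF 6 stood 0.85 above the HF mean and HFLF 1 to 5 averaged 0.67 above it. It was the only 1 of 5 names of the miR-30 list in the table.

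MiR-24-2-5p, the passenger strand of a miR-24 hairpin, ran from 4.32 to 5.78 in HFLF and from 2.44 to 5.21 in HF (difference 1.35, SE 0.47, adjusted p = 0.0905). MiR-24-1-5p shares its seed but comes from another chromosome, 13 in place of 8, and was detected only in HFLF, in 3 of 6 libraries at 2.47 to 3.94. MiR-301a-3p, named here after its values were seen, had 7.70 to 8.92 in HFLF and 6.98 to 8.29 in HF (difference 0.60, adjusted p = 0.0959).

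Markers of blood and liver varied widely between libraries. The red cell miRNA miR-451a, which matures without Dicer, had a lowest, median and highest value of 7.34, 8.25 and 9.78 in HFLF and of 3.89, 6.12 and 10.33 in HF. HF 1 held the highest value of all 18 and HF 6 the lowest, and the difference was 1.79 (SE 0.67, adjusted p = 0.0905). HFLF 6, at 9.78, was the highest HFLF library. The hepatocyte miRNA miR-122-5p was highest in HFLF 6 (9.26) and HF 6 (9.27), and the groups ran from 5.33 and from 2.92 up to these values (difference 0.88, adjusted p = 0.356).

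Of the leukocyte list, 3 of 11 names stand in the table. MiR-342-3p, hosted in an intron of Evl, had 8.09 to 9.55 in HFLF and 8.59 to 10.02 in HF (difference -0.65, adjusted p = 0.111). MiR-150-5p, of mature lymphocytes, averaged 8.93 ± 0.86 in HFLF and 8.77 ± 0.90 in HF (SD, n = 6 each), and miR-223-5p, of myeloid cells, was detected in 4 HFLF and 3 HF libraries. The summed level of the 3 averaged 9.81 ± 0.67 in HFLF and 10.06 ± 0.68 in HF (SD, n = 6 each). The smooth muscle and fat cell list gave miR-143-3p, with the highest level of the table (17.34 to 18.64 in HFLF, 17.12 to 17.90 in HF, difference 0.31, adjusted p = 0.321), and miR-107-3p, an insulin-sensitivity miRNA (difference 0.53, adjusted p = 0.207). No name of the epithelium, fibroblast or miR-29 lists stands in the table, and miR-183-5p was the only 1 of its cluster (difference -0.73, adjusted p = 0.164). The part of blood, liver or other cells in the differences was not tested.

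Several libraries stood at opposite ends of their own diet for miRNAs with lower and with higher means in HFLF. In HFLF, library HFLF 5 was lowest for miR-10a-5p, miR-10b-5p, miR-99a-5p, miR-99b-5p and miR-100-5p and highest for both miR-19, miR-30b-5p and miR-34c-5p. HFLF 4 was highest for miR-10a-5p, miR-10b-5p and miR-99b-5p and lowest for both miR-19, miR-30b-5p and miR-34c-5p. In HF, HF 4 was highest for miR-10a-5p, miR-10b-5p, miR-99b-5p and miR-100-5p and lowest for both miR-19, miR-30b-5p, miR-34c-5p and miR-301a-3p. HF 1 was lowest for all 5 of the miR-10 family and highest for miR-30b-5p, miR-34c-5p and miR-301a-3p in its group.

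**Figure D3:**
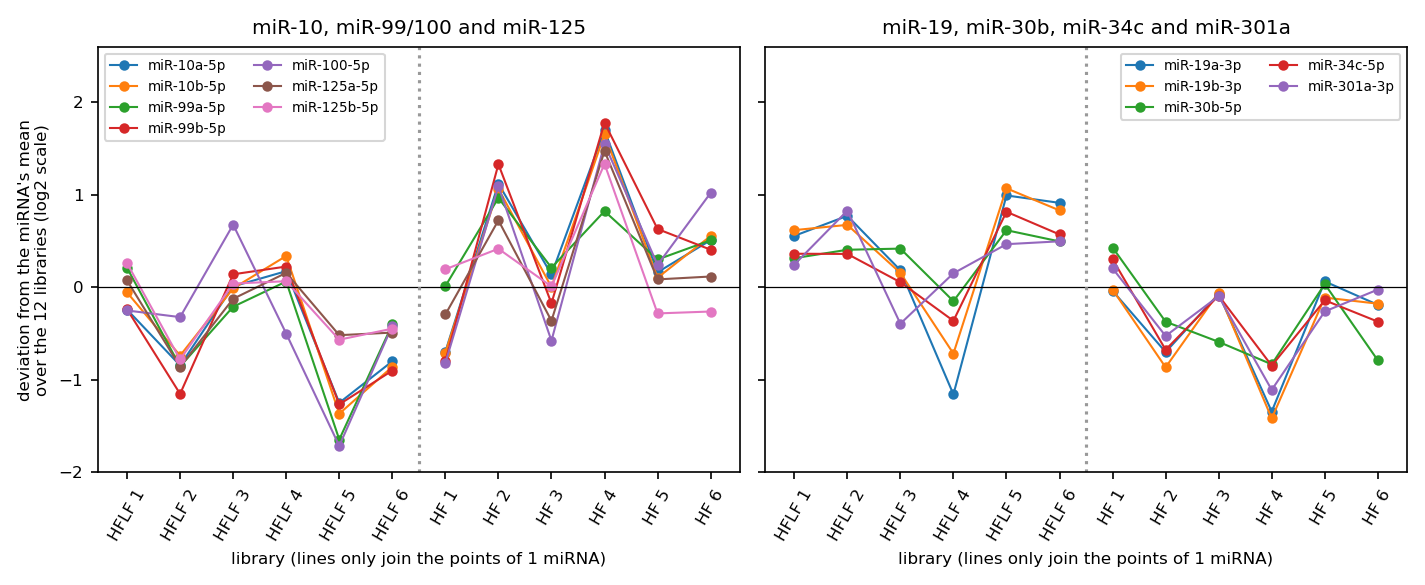
Deviation of each miRNA from its own mean over the 12 libraries (vertical axis, log2 scale) by library, HFLF left and HF right of the dotted line, for 7 miRNAs with lower means in HFLF and 5 with higher means. HF 4 is the highest HF library in the left panel for 6 of the 7 miRNAs and the lowest HF library in the right panel for all 5, and HF 1 is the lowest HF library for the 5 miRNAs of the miR-10 family.

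The number of calls changed most when HF 1 was left out. Without HF 1, 10 miRNAs were called, 5 lower (miR-99b-5p, miR-10a-5p, miR-3470b, miR-871-3p and miR-1a-3p) and 5 higher (miR-301a-3p, miR-34c-5p, miR-24-2-5p, miR-30b-5p and miR-451a). In that fit miR-10a-5p differed by -1.22 (adjusted p = 0.0414), miR-99b-5p by -1.33 (adjusted p = 0.0358), miR-34c-5p by 0.73 (adjusted p = 0.0358) and miR-451a by 2.55 (adjusted p = 0.00406). No label marks HF 1 as faulty, and the 12-library fit is the one reported. HF 5 left out gave 4 calls, and LF 3, which enters only through the shared spread, gave 5.

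Set beside the separate library numbers, HFLF 6 and the mean of HFLF 1 to 5 each differed from the HF mean, and both use the same HF libraries. For miR-10a-5p the differences were -1.29 for HFLF 6 and -0.92 for HFLF 1 to 5, and for miR-10b-5p -1.31 and -0.81. For miR-19b-3p they were 1.27 and 0.80, and for miR-34c-5p 0.87 and 0.55. MiR-206-3p (-0.40 and -3.17), miR-451a (3.24 and 1.5), miR-122-5p (3.36 and 0.39) and miR-5099 differed in size between them by more than the miRNAs just given. So did miR-690 (-0.02 and -1.12) and miR-215-5p (3.42 and 0.58). The sign differed for miR-150-5p (-0.32 and 0.26), miR-345-5p (-0.02 and 0.79) and miR-223-5p (-0.31 and 0.20). It also differed for miR-1291 (0.11 and -0.91) and miR-3062-5p (0.12 and -0.78). HFLF 6 is 1 library and carries no spread of its own.

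Sparse miRNAs were compared by the number of libraries in which they were detected. Of the 33 that were detected in some of the 12 libraries, 13 were detected in more HFLF than HF libraries, 17 in fewer and 3 in as many. No miRNA passed Fisher's exact test of detection (0 of 33, 0%), and 0 had an unadjusted p below 0.05. The most uneven were miR-380-3p and miR-137-3p, each in 4 of 6 HFLF and 0 of 6 HF libraries (exact p = 0.0606).

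In all, 9 miRNAs were detected in HFLF and in no HF or LF library. Besides the pair just given and miR-24-1-5p and miR-106a-5p, they were miR-615-5p, encoded inside Hoxc5, miR-1941-3p and miR-6988-3p with 3 libraries each, miR-511-5p with 2 and miR-3964 with 1. MiR-380-3p, of the imprinted Dlk1-Dio3 block on chromosome 12, had 2.91, 2.18, 4.32 and 2.96 in HFLF 1, 4, 5 and 6. Each of the 9 was at the lowest value in at least 2 HFLF libraries. Of the Dlk1-Dio3 list, miR-485-5p was detected in 2 HF and 0 HFLF libraries and miR-370-5p in 1 HF and 0 HFLF library, so its 3 of 135 names did not share a direction.

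In the other direction, 13 miRNAs were detected in HF and in no HFLF library, and 10 of these in a single HF library. Between the extremes, miR-293-5p, of an embryonic stem cell cluster, was detected in 6 HFLF and 4 HF libraries and averaged 4.81 ± 0.37 in HFLF and 3.47 ± 1.41 in HF (SD, n = 6 each, with undetected libraries at the lowest value; difference 1.33, adjusted p = 0.0905). MiR-187-3p, also in 6 and 4 libraries, averaged 3.97 ± 0.99 in HFLF and 2.65 ± 0.81 in HF (adjusted p = 0.0983). MiR-215-5p, of a family shared with the epithelial miR-192, had the same counts and a difference of 1.06 (adjusted p = 0.181), with HFLF 6 highest at 6.60.

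Detection was lower in HFLF for miR-1291 and miR-3062-5p, each in 2 HFLF and 4 HF libraries, with differences of -0.74 (adjusted p = 0.177) and -0.63 (adjusted p = 0.126). MiR-671-5p was detected in 5 libraries of each diet, miR-7218-5p in 3 and miR-384-5p in 1, and their differences had intervals that span 0. The 9 miRNAs detected in neither diet were found in 1 to 3 LF libraries each, led by miR-1970 with 3.

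**Figure D4:**
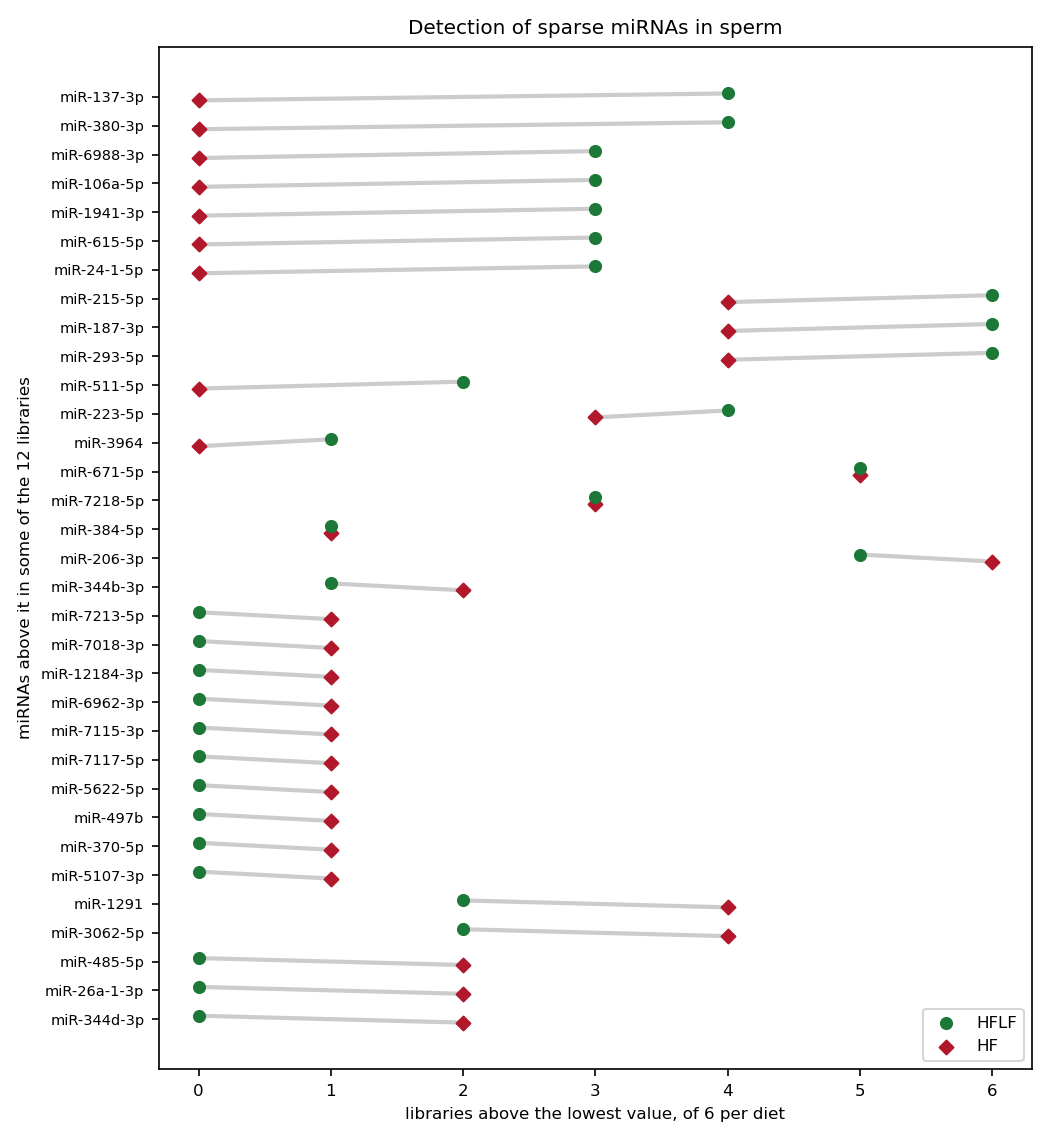
Number of libraries, of 6 per diet, in which each of the 33 partly detected miRNAs lay above the lowest value; circles are HFLF and diamonds HF. MiR-137-3p and miR-380-3p, at 4 against 0, are the most uneven, and 10 miRNAs at the lower end rest on a single HF library.

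Against LF, HFLF sperm showed no called miRNA (0 of 79, 0%), with 11 at an unadjusted p below 0.05 in limma. HF against LF, fitted for the same libraries, gave 0 called and 24 at an unadjusted p below 0.05. The comparisons share libraries, so their values are given side by side. MiR-10a-5p averaged 14.69 in HFLF, 15.67 in HF and 14.91 in LF. MiR-19b-3p averaged 14.00 in HFLF, 13.12 in HF and 13.84 in LF. MiR-871-3p averaged 10.52 in HFLF, 11.37 in HF and 10.79 in LF, and miR-30b-5p 12.49 in HFLF, 11.78 in HF and 12.29 in LF. For these 4 the HFLF mean lay nearer to the LF mean than to the HF mean. All 4 are among the 10 of smallest p for HFLF against HF. They were thus picked for a distance from HF, and their nearness to LF is not a separate result. MiR-183-5p was lower in HFLF, at 7.47, than in both HF (8.20) and LF (8.11), with differences of -0.73 and -0.64. Among the always-detected miRNAs, the HFLF mean lay nearer to HF for miR-150-5p (difference 0.16 from HF and 0.90 from LF). The same held for miR-5121 (0.67 and 1.40), miR-345-5p (0.65 and 1.04), miR-574-3p (-0.45 and 0.80) and miR-122-5p (0.88 and 1.11). An adjusted p above 0.05 does not show that HFLF and LF were alike: for miR-10a-5p the 95% interval of HFLF minus LF ran from -0.98 to 0.53.

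The authors' 3 clusters, whose rule is not stated and which may rest on these values, are given as a description. Cluster 1 has 35 miRNAs, of which 34 had lower means in HFLF and 1 a higher mean. Cluster 2 has 28, mostly sparse, with 12 higher, 8 lower and 8 equal. Cluster 3 has 16, with 15 higher and 1 equal.

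Liver and epididymal fat (eWAT) of the same diets were deposited as counts, with 7017730 to 14394584 counts per liver library and 7481038 to 13022536 per eWAT library. In eWAT 148 of 571 miRNAs were called between HFLF and HF by edgeR (25.9%), and in liver 0 of 422 (0%), with 65 at an unadjusted p below 0.05 and 15 called by DESeq2. Of the miRNAs that the sperm table lists, 51 were tested in eWAT and 16 called (31.4%), 9 higher and 7 lower, a share near that of all miRNAs there. In liver 43 were tested and 0 called.

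In eWAT miR-10a-5p, miR-10b-5p and miR-99a-5p were higher in HFLF than in HF, whereas their sperm means were lower. MiR-10b-5p had 23435 ± 1718 CPM (counts scaled to 1000000 per library) in HFLF eWAT and 16890 ± 2333 CPM in HF eWAT (SD, n = 6 each; log2 fold change 0.47, edgeR adjusted p = 0.00288). The log2 fold changes of miR-10a-5p and miR-99a-5p were 0.33 (adjusted p = 0.0120) and 0.50 (adjusted p = 0.00782). MiR-30b-5p (0.55, adjusted p = 0.0120) and miR-451a (0.94, adjusted p = 0.00572) were higher in HFLF eWAT, and their sperm means were higher too. MiR-342-3p was lower in HFLF eWAT, with 170.5 ± 69.9 CPM in HFLF and 870.2 ± 676.1 CPM in HF (-2.35, adjusted p = 0.00202), as was miR-5099 (-0.84, adjusted p = 0.00614), and both had lower sperm means. MiR-1a-3p had 2729 ± 1156 CPM in HFLF eWAT and 1422 ± 1147 CPM in HF eWAT (log2 fold change 0.94, adjusted p = 0.106). The difference between tissues was not tested, since the sperm values and the counts are on different scales.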

How the data were processed

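Small RNA libraries were made, per the labels, from total RNA with a NEXTFLEX kit, and the submitters' processing notes name cutadapt, Bowtie and GRCm38.p6 with no version of either tool. How reads were assigned to miRNA names is not given in the sources used here. The sperm values were deposited on a log2-like scale whose transformation is not stated, with a cluster number per miRNA (other: no measurement). The liver and eWAT tables were deposited as raw counts per mature miRNA. A further 18 sperm columns match no sample here and were not used.

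Sperm values of all 18 libraries entered limma 3.58.1 in R 4.3.3 without further scaling (eBayes, with a mean-variance trend), with the 3 diets as groups. P-values were 2-sided and adjusted over the 79 miRNAs (Benjamini-Hochberg), and a call is an adjusted p below 0.05. Detection was tested with Fisher's exact test, and single miRNAs with an exact permutation of the 12 libraries. Counts were fitted with edgeR 4.0.16 (filterByExpr, TMM, quasi-likelihood test), with DESeq2 1.42.0 as an alternative. Steps were tested on simulated data. Summed levels add 2 to the power of the values. Host genes are those of GENCODE on the same strand.

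The text names every called miRNA, the 10 of smallest p, the 10 of highest mean, uneven detection, and the members of lists with at least 2 names in the table; others were chosen after their values were seen. The miRNAs, lists and tests were chosen with earlier results of these data known.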

Additional observations from a re-analysis of the deposited data

Results flagged for a closer look

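Only the 28 miRNAs named by rule were searched. In 9 cases all 6 HFLF libraries lay on 1 side of the HF mean in sperm and all 6 on the opposite side in another tissue. None of these differences between tissues was tested. Against eWAT they were miR-1a-3p (sperm difference -0.81, eWAT log2 fold change 0.94), miR-133a-3p (-0.62 and 0.44), miR-10a-5p (-0.98 and 0.33), miR-10b-5p (-0.89 and 0.47) and miR-99a-5p (-0.94 and 0.50), of which the eWAT changes of miR-10a-5p, miR-10b-5p and miR-99a-5p were called. Against liver they were miR-10a-5p (-0.98 and 0.20), miR-99b-5p (-1.06 and 0.24), miR-5099 (-0.83 and 0.58) and miR-107-3p (0.53 and -0.47), with no liver change called. MiR-125a-5p, which was not searched, showed the same pattern against liver (-0.58 and 0.45, not called). Between tissues, only opposite directions were looked for. By the same rule, other named miRNAs went the same way in sperm and eWAT. They were miR-30b-5p (0.70 and 0.55), miR-451a (1.79 and 0.94), miR-5099 (-0.83 and -0.84), miR-107-3p (0.53 and 0.48) and miR-99b-5p (-1.06 and -0.07). Of these, all but miR-99b-5p were called in eWAT. No library stood out by Dixon's criterion in the 45 HFLF and HF groups of named miRNAs examined, where chance gives about 1 in 20. LF groups were not examined.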

How the results depend on the processing

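For HFLF against HF in sperm the count of calls was 1. It was 6 (3 higher, 3 lower) among the 46 miRNAs detected in at least 6 of the 12 libraries, 2 after centring, 0 with the exact permutation test (20 at an unadjusted p below 0.05; its smallest p of 0.00216 cannot pass for a single miRNA over 79 tests), and 1 to 10 when a library was left out. Leaving out HFLF 3 or LF 4 gave 2, HFLF 4 or HF 5 gave 4, LF 3 gave 5 and HF 1 gave 10. HFLF 6 alone gave 6, against HF and against LF, all of miRNAs at the lowest value in every HF and LF library, where the estimated spread is near 0. A replicate block gave 2 calls. Same-numbered HFLF and HF libraries correlated from -0.20 to 0.38 and 0 of 6 libraries correlated best with their own number, so the numbers were not taken as pairs.

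In liver the count of 0 became 15 with DESeq2, 1 with RLE factors and 9 without a filter, and 0 to 6 when a library was left out. In eWAT the count of 148 became 89 without a filter, and 91 to 160 when a library was left out (HFLF 5 gave 98, HF 3 gave 91). HFLF against LF and detection stayed at 0 when a library was left out, and detection with a higher limit too.

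Of 668 refits of the 28 named miRNAs, 629 kept direction and side of the threshold, 29 passed newly, 2 (both miR-1a-3p: after centring, and with HFLF 6 alone, where the difference was -0.99 and the spread came from HF and LF) no longer passed and 8 turned. Part of this tally was fixed in advance. Refits without the trend, with the detection filter, on the 2 compared diets, with the replicate block or without an LF library left every difference unchanged. Apart from miR-1a-3p, no named miRNA was called in the main fit, so keeping the side of the threshold meant staying uncalled. With a library left out, differences ran from -0.12 to 0.41 for miR-150-5p and from -0.21 to 0.57 for miR-223-5p. MiR-150-5p turned without HFLF 3 (-0.12), without HF 5 (-0.000317) and with HFLF 6 alone (-0.32). MiR-223-5p turned without HFLF 3 (-0.21), without HF 1, HF 2 or HF 4 (-0.0324 each) and with HFLF 6 alone (-0.31). The LF libraries and, for LF, the HF libraries were left out as choices made after seeing the data. Where not given, the cause was not tested. The unknown depth of sperm libraries limits what can be said of sparse miRNAs.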
